A study of Mus musculus with 47 samples.

Results

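The first 24 h of muscle differentiation without doxycycline (dox) were followed in C2C12 iMyoD1, a polyclonal line of mouse C2C12 myoblasts. The comparison rests on all 6 libraries of the series that match it, of 47 in the whole series: 3 biological replicates kept in growth medium (0 h of differentiation) and 3 taken 24 h after serum withdrawal. The line carries a Halo-tagged MyoD1 cDNA behind a dox-responsive promoter, integrated by PiggyBac transposition, and every culture used here for the main comparison had vehicle in place of dox. PolyA-selected RNA was sequenced, and each library held 16.2, 19.3 and 19.3 M estimated counts at 0 h and 25.4, 29.0 and 30.4 M at 24 h. The growth-medium cultures were given vehicle for as long as the differentiating ones, so the times are those of differentiation and not of culture. At 24 h, growth medium with fetal bovine serum had been replaced by a horse serum medium that also holds insulin, transferrin and selenium, and wells meant for differentiation were seeded with more cells. Effects of the medium and of cell density therefore cannot be told apart.

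Myoblasts are committed muscle precursors that divide in rich medium and leave the cell cycle when serum is withdrawn. MyoD1 and Myf5 mark the dividing precursor, Id proteins hold them in check by binding their E protein partners, and myogenin (Myog) opens the program that ends in fused, striated myotubes. The fusogens myomaker (Mymk) and myomerger (Mymx) and the sarcomere genes follow myogenin.

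Of 45706 genes in the annotation, 13632 had enough counts to be tested, and 1293 of them (9.49%) rose and 2269 (16.6%) fell by over 2-fold with an adjusted p below 0.05. Without the 2-fold limit, 10126 genes (74.3%) passed, 5086 higher and 5040 lower at 24 h, so a change of any size was the common case and the counts below are to be read against these shares. In what follows a gene "rose" or "fell" when its adjusted p was under 0.05, and levels are CPM, counts scaled to library size. More than 8-fold changes were found for 160 genes up and 237 genes down. Protein-coding genes made up 1094 of the genes up and 2090 of those down. The median log2 fold change over all genes tested was 0.01, and it was -0.12 when libraries were scaled by their totals only, an alternative chosen after the data were seen. That shift left the sign of the median of every list below in place except for the myogenic factors (-0.10 with totals only) and the autophagy list (-0.04). The share of counts from mitochondrial genes was 3.93 to 4.17% at 0 h and 4.60 to 4.86% at 24 h, and the 10 most abundant genes took 5.35 to 5.54% and 6.75 to 6.88%. In these whole cultures, fewer cells of a kind and less RNA per cell cannot be told apart.

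**Figure D1:**
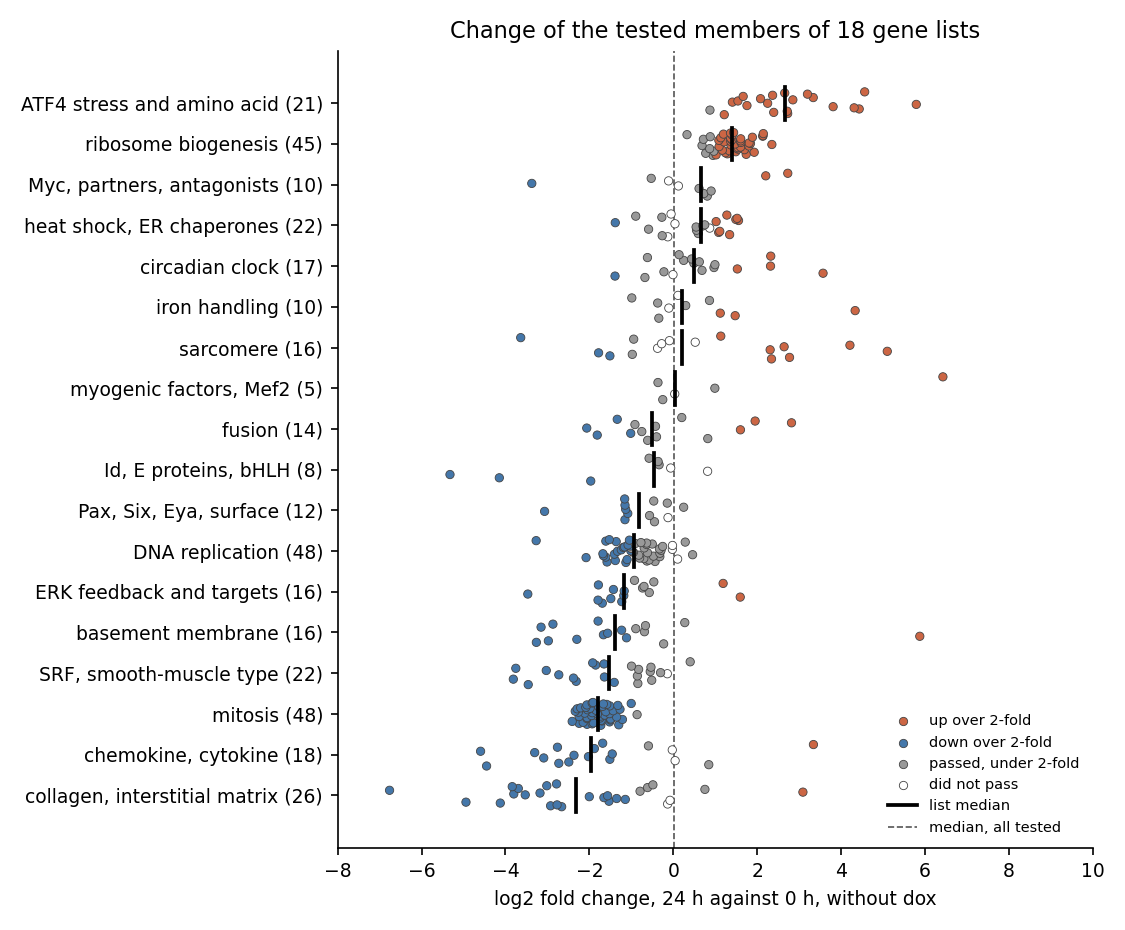
Log2 fold change from 0 to 24 h without dox (horizontal axis) of each tested member of 18 gene lists, with the number of members tested in parentheses. Each point is a gene, filled red or blue when it changed by over 2-fold at an adjusted p under 0.05, grey when it passed with a smaller change and white when it did not pass. Black bars are list medians and the dashed line is the median of all genes tested. The ATF4 and ribosome biogenesis lists lie to the right, with medians of 2.66 and 1.40, and the mitosis and collagen lists to the left, at -1.79 and -2.33.

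Myod1 itself (ENSMUSG00000009471, GRCm38 chr7:46376474-46379099, plus strand) held 179, 169 and 177 CPM in the 0 h replicates and 139.5, 137 and 132 CPM at 24 h. All 24 h libraries were below all 0 h libraries, and the fall was small, a log2 fold change of -0.36 (SE 0.054, adjusted p = 3.28e-05). Reads from the endogenous gene and from the tagged cDNA cannot be told apart in these counts. The related factor Myf5 moved the other way, from 20.04, 17.02 and 17.8 to 35.7, 33.7 and 39.5 CPM, a log2 fold change of 0.99 (SE 0.085, adjusted p = 1.28e-07), just under 2-fold.

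Myog (ENSMUSG00000026459, GRCm38 chr1:134289989-134292548, plus strand) had 0, 1 and 2 counts in the 0 h libraries and 115, 141 and 144 counts at 24 h. Scaled to depth, the summed counts at 24 h were 95.0 times those at 0 h, with an exact 95% interval for counting error alone of 32.3 to 463 (the reads carry no molecular tags, and intervals and floors cover that error only, adjusted p = 2.67e-09). Its level after this rise was still low, at 4.69, 5.08 and 5.06 CPM, below that of Myf5. Without dox at 48 and 120 h, Myog stood at 1499 ± 10.1 and 2095 ± 385 CPM (SD, n = 3 each). Those later libraries belong to another deposited table, so batch and time cannot be told apart between 24 and 48 h and no test was made. Among the 8 myogenic regulatory factors and Mef2 genes, 5 could be tested. Myf6, Mef2b and Mef2c were not among them, with at most 7 counts in any of the 6 libraries.

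Id genes fell sharply. Id3 (ENSMUSG00000007872, GRCm38 chr4:136143497-136145755, plus strand), an inhibitor that sequesters E proteins, dropped from 241, 249 and 263 CPM to 5.10, 5.87 and 7.72 CPM, 40.00-fold lower (log2 fold change -5.32, SE 0.107, adjusted p = 1.06e-13). Id2 fell from 34.8 ± 1.82 CPM (SD, n = 3) to 1.97 ± 0.676 CPM (SD, n = 3), and Id1 from 36.1 to 9.22 CPM, with log2 fold changes of -4.15 (SE 0.168) and -1.97 (SE 0.079). Of the E proteins that Id proteins bind, named after their values were seen, Tcf3 and Tcf4 fell by log2 fold changes of -0.34 and -0.36 (SE 0.061 and 0.053), and Tcf12 did not pass (-0.06, adjusted p = 0.411). It did pass without the first 24 h library (adjusted p = 0.0397) and with totals-only scaling (adjusted p = 0.0186). Of 8 tested genes in the list of Id proteins, E proteins and related factors, 3 fell by over 2-fold, and these were the Id genes (5 fell without the low-count filter).

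Apart from Myf5, several precursor genes fell. In the list of Pax, sine oculis and Eya factors and myoblast surface genes, 6 of 12 tested members fell by over 2-fold, and the median log2 fold change was -0.82. The satellite cell factor Pax7 fell from 26.4, 25.98 and 20.6 to 10.1, 11.95 and 10.8 CPM (log2 fold change -1.15, SE 0.113). Megf10, a receptor of satellite cells, fell 8.38-fold, from 94.2 ± 4.16 CPM (SD, n = 3) to 11.2 ± 0.136 CPM (SD, n = 3), and the adhesion receptor Vcam1 had a log2 fold change of -1.16. Ncam1, which rises in differentiating muscle cells, was slightly higher, with a log2 fold change of 0.25 (SE 0.07), a call lost with totals-only scaling (adjusted p = 0.192).

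The fusogens had begun to rise from near zero. Mymk, which both fusing cells need, went from 0.059, 0.346 and 0.393 CPM to 1.51, 2.27 and 2.14 CPM (log2 fold change 2.82, SE 0.42, adjusted p = 3.34e-05), and Mymx from 0.177, 0.198 and 0.196 to 0.735, 0.792 and 0.737 CPM (log2 fold change 1.95, SE 0.435, adjusted p = 0.00107). At 48 h without dox they stood at 799 ± 64.1 and 257 ± 8.34 CPM (SD, n = 3 each), again in the other table. Over all 14 tested fusion genes, Mymk and Mymx included, 3 rose and 4 fell by over 2-fold and the median was -0.52. The other riser, named after its value was seen, was the membrane repair gene Dysf, from 10.3 to 31.2 CPM. The junction molecule Jam2 fell from 49.6 to 11.9 CPM and the tetraspanin Cd9 from 388 to 111 CPM, with log2 fold changes of -2.06 and -1.81 (SE 0.071 and 0.059).

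Most sarcomere genes had hardly started. Of 35 listed, 19 had too few counts to be tested, 7 rose and 3 fell by over 2-fold. The fallers were 5 without the third 24 h library, without the low-count filter or with totals-only scaling, and the risers were 4 after libraries were thinned to the smallest total. Those that rose were Mybph, Myom2, Actc1, Mylpf, Acta1, Myh3 and Ttn, named here after their values were seen, and apart from Myom2, at 10.4 CPM, none exceeded a mean of 2.48 CPM at 24 h. Myom2, an M-band protein of the myosin filament, rose from 0.568 ± 0.174 CPM (SD, n = 3) to 10.4 ± 0.475 CPM (SD, n = 3) (log2 fold change 4.21, SE 0.193). Skeletal actin Acta1 had 2.45, 1.87 and 3.12 CPM at 24 h, and 5329 ± 286 CPM (SD, n = 3) at 48 h in the other table. Cardiac-type troponin T, Tnnt2, went against the program in this interval: it fell from 33.96, 34.1 and 31.8 to 2.45, 3.28 and 2.28 CPM, a log2 fold change of -3.64 (SE 0.125, adjusted p = 1.06e-11), and was at 1214 ± 34.7 CPM (SD, n = 3) at 48 h. Ldb3, a Z-disc protein, fell as well (log2 fold change -1.78). At 24 h after the switch these were cultures with low myogenin and little RNA of the sarcomere genes that rose. Desmin (Des), also in the list, was the most abundant of the 7 myoblast markers summed below.

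Of 10 tested genes of the neuromuscular junction 1 rose and 4 fell by over 2-fold, with a median of -0.89. The one that rose, named after its value was seen, was the acetylcholine receptor subunit gene Chrnd, from 1.81 to 7.36 CPM, while the agrin receptor Lrp4 fell from 108 to 32.03 CPM (log2 fold change -1.75, SE 0.062). In the excitation-contraction list 1 of 10 tested rose and 3 fell by over 2-fold, with a median of 0.31 and 2 risers without the second 0 h library. The calcium pump Atp2a2 rose by a log2 fold change of 0.67 (SE 0.063), and the junctophilin gene Jph2 had one of -1.31 (SE 0.07).

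**Figure D2:**
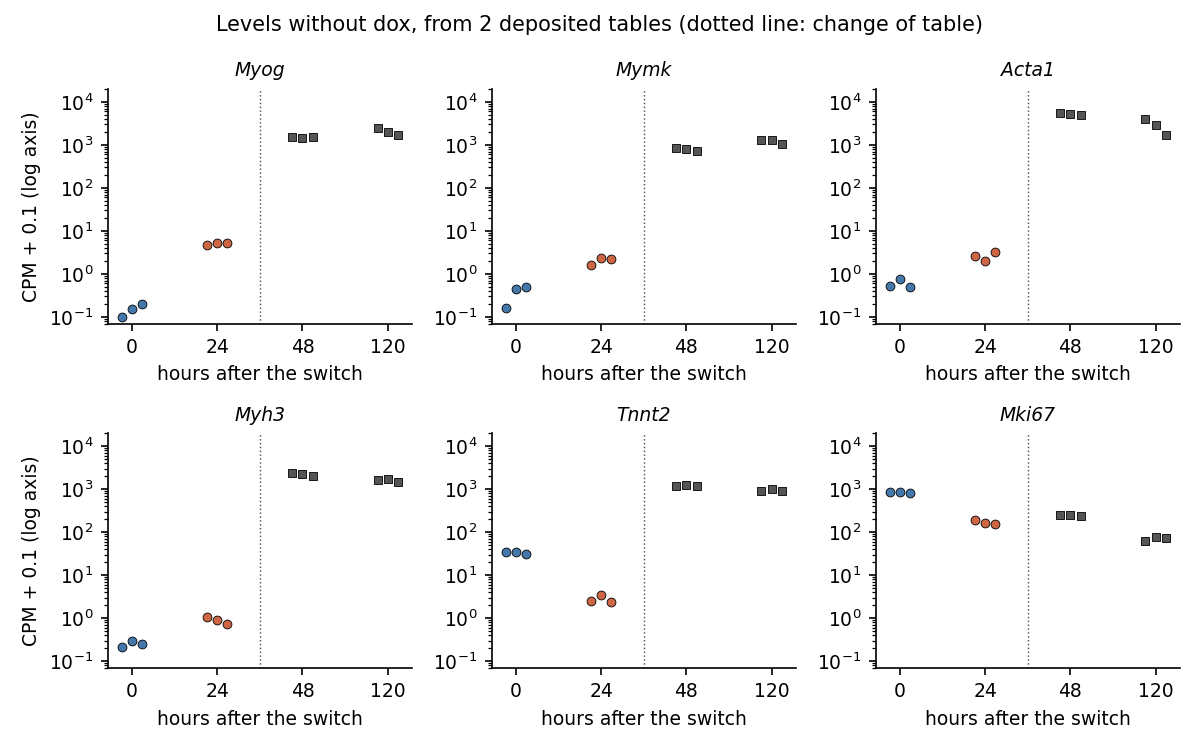
Levels of 6 genes without dox (vertical axis, CPM plus 0.1 on a log axis) at 0 and 24 h (circles) and at 48 and 120 h (squares), with 1 point per library and 3 libraries per time. Times to the right of the dotted line come from another deposited table. Myog, Mymk, Acta1 and Myh3 stay within the lowest decades at 24 h and are far higher at 48 h, Tnnt2 dips at 24 h, and the proliferation gene Mki67 is lower at 24 h than at 0 h.

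Cell division genes fell together. All 48 mitosis genes had enough counts, 47 fell by over 2-fold and the remaining one, Incenp, fell by a log2 fold change of -0.86 (SE 0.058), against 16.6% of all genes tested that fell by over 2-fold. The list median was -1.79. Cyclin B2 (Ccnb2), a partner of Cdk1 at entry into mitosis, fell the most, from 112, 116 and 113 to 22.7, 20.6 and 21.03 CPM (log2 fold change -2.41, SE 0.063, adjusted p = 9.6e-13). The proliferation marker Mki67 fell from 874, 860.2 and 834 to 192, 165 and 151 CPM, 5.05-fold lower. With 169.6 CPM left at 24 h, its RNA was reduced and not lost.

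DNA replication genes fell less. Of 48 tested, 43 fell, 21 of them by over 2-fold, with a median log2 fold change of -0.93. Thymidine kinase Tk1, which salvages thymidine for S phase, had the largest fall, from 169, 163 and 166 to 17.2, 16.5 and 17.98 CPM (9.63-fold lower, SE of the log2 fold change 0.063), followed by the repressor E2f7 (log2 fold change -2.08, SE 0.067). Gins4, a subunit of the replicative helicase, and Rpa3, of the single-strand binding complex, were slightly higher, with log2 fold changes of 0.46 and 0.29, the latter lost with totals-only scaling (adjusted p = 0.0825).

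Inhibitors of the cycle and arrest genes changed in both directions. The CDK inhibitor Cdkn1a (p21) rose from 98.9, 102 and 96.8 to 536, 583 and 592 CPM, 5.74-fold higher (log2 fold change 2.52, SE 0.062, adjusted p = 5.42e-13). Gadd45a, a growth arrest gene, rose from 12.6, 9.11 and 11.8 to 348, 359 and 353 CPM, 31.7-fold. Cyclin D1 (Ccnd1), which links serum growth factors to the cycle, fell from 301, 291 and 284 to 50.3, 45.3 and 47.7 CPM (log2 fold change -2.61, SE 0.061). Gadd45b fell as well, by 4.59-fold. Cdkn1c (p57), an inhibitor of differentiating muscle, was lower at 24 h, at 1.06, 1.73 and 1.37 CPM against 6.13, 5.79 and 7.61 CPM (log2 fold change -2.22, SE 0.206), and stood at 672 ± 38.8 CPM (SD, n = 3) at 48 h. In the list of inhibitors, retinoblastoma family genes, cyclins D and E and arrest genes, 5 of 24 tested rose and 9 fell by over 2-fold.

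Short motifs that many of the mitosis genes hold can be seen in their promoters. RefSeq windows of 300 bases on GRCm38.p6, from 250 before to 50 after the start, were found for 39 of the 48. The CHR motif (TTTGAA, both strands) was in 27 of these (69.2%), against 11.7% of the 9974 tested genes with a window and 18.1% of all 27025 windows. The CCAAT box (CCAAT, both strands) was in 29 (74.4%), against 39.1% and 37.9%. The replication list held CCAAT in 66.7% of its windows and the E2F letters GGCGGGAA in 17.9%, against 4.1% of tested genes. A match is a description of letters, not a bound site. The last 150 bases before the start of Cdk1 (chr10:69352913-69353062, minus strand), Cdc20 (chr4:118437344-118437493, minus), Ccnb1 (chr13:100786487-100786636, minus) and Ccnb2 (chr9:70421555-70421704, minus) show the arrangement, with CHR and CCAAT matches in capitals. These genes were picked after their matches were seen, and Ccnb1 and Ccnb2 have no CHR letters in this stretch. The starts are those of RefSeq. By the gene positions used elsewhere in the text, Ccnb1 begins at chr13:100786570, within its printed stretch.
Cdk1: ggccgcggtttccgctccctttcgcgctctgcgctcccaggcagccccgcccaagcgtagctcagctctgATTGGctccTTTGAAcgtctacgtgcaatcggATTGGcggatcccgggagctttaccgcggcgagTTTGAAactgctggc
Cdc20: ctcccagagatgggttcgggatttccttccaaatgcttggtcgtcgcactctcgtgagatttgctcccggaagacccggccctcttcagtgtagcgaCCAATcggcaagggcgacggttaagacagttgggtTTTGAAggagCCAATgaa
Ccnb1: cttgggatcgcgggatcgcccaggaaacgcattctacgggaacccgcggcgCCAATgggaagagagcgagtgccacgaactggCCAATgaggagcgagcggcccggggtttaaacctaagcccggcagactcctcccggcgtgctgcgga
Ccnb2: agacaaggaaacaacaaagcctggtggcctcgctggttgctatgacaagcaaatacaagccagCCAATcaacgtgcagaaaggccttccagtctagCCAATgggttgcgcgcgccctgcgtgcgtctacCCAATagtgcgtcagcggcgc
In Cdk1 the CHR matches begin 71 and 15 bases before the start and the CCAAT matches 80 and 48, and in Cdc20 the CHR match begins at 18 and the CCAAT matches at 53 and 8. Cdk1 RNA fell from 192 to 68.4 CPM and Cdc20 RNA from 172 to 53.2 CPM, with log2 fold changes of -1.49 and -1.70 (SE 0.07 and 0.059). For Ccnb1 the levels were 208 and 72.5 CPM.

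**Figure D3:**
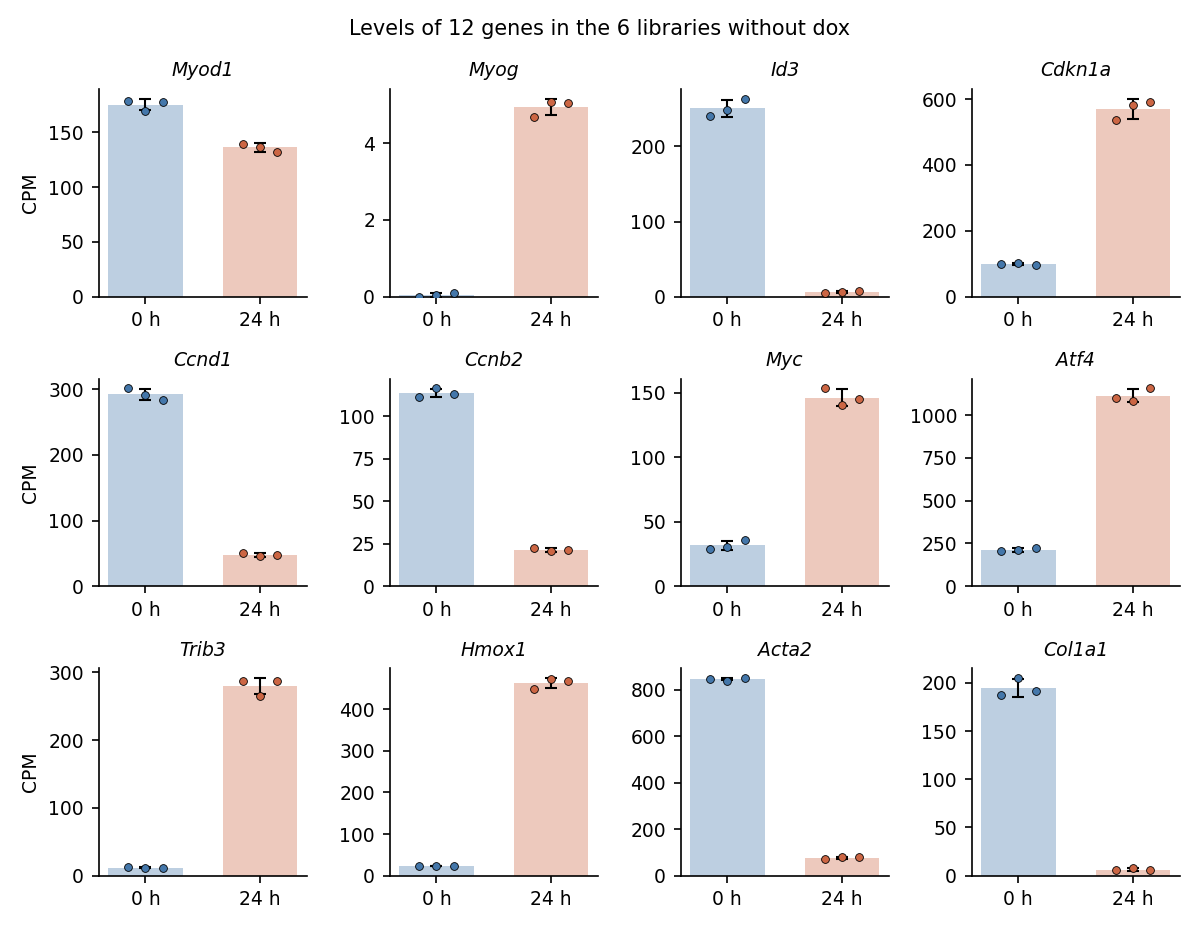
Levels in CPM (vertical axis, starting at 0) of 12 genes at 0 and 24 h without dox. Points are the 3 libraries of each time, bars their mean and error bars the SD. Groups do not overlap in any panel, with Id3, Ccnd1, Ccnb2, Acta2 and Col1a1 far lower and Cdkn1a, Myc, Atf4, Trib3 and Hmox1 far higher at 24 h.

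All listed genes of a stress and amino acid program rose, by log2 fold changes of 0.88 to 5.79. ATF4 is a transcription factor translated when amino acids run short or unfolded protein builds up, and its targets make and import amino acids. All 21 genes of this list were tested and 20 rose by over 2-fold, against 9.49% of all genes tested, with a median log2 fold change of 2.66. The remaining one, Cebpb, rose by 0.88 on the log2 scale (SE 0.067). Atf4 RNA (ENSMUSG00000042406, GRCm38 chr15:80255184-80257541, plus strand) rose from 204, 208 and 223 to 1102, 1081 and 1156 CPM, 5.26-fold (SE of the log2 fold change 0.062, adjusted p = 8.71e-13). Trib3 (ENSMUSG00000032715, GRCm38 chr2:152337422-152344032, minus strand), a pseudokinase induced by ATF4, rose from 13.2, 11.3 and 11.1 to 287, 266 and 287 CPM, 23.6-fold (SE 0.078 on the log2 scale). Gdf15, a secreted stress signal, had the largest change of the list, from 3.77, 2.52 and 5.45 to 221, 212 and 221 CPM. The smallest of those called was Aldh18a1, the first enzyme of proline synthesis, with a log2 fold change of 1.22. The least precise change of the list was that of Slc7a11, the cystine importer, which had 5.48, 3.02 and 26.9 CPM at 0 h and 123, 104 and 104 CPM at 24 h. Its log2 fold change of 3.20 carries an SE of 0.433.

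The ATF4 composite letters (TGATGNAA, both strands), added to the motifs after the values were seen, were in the windows of 5 of 19 listed genes (26.3%), against 2.2% of tested genes and 4.1% of all windows. They are shown in capitals in the 150 bases before the start of Asns (chr6:7693210-7693359, minus strand), which makes asparagine, Slc7a11 (chr3:50443614-50443763, minus), Atf3 (chr1:191183334-191183483, minus) and Fgf21 (chr7:45615491-45615640, minus). The latter are a stress factor and a hormone from outside the list, and all were picked because they rose and hold a match.
Asns: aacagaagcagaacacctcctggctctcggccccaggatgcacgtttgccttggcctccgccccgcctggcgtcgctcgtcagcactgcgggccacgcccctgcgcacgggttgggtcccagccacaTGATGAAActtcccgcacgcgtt
Slc7a11: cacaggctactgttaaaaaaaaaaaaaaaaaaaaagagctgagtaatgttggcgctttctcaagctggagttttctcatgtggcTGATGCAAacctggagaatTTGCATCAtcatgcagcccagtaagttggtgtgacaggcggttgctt
Atf3: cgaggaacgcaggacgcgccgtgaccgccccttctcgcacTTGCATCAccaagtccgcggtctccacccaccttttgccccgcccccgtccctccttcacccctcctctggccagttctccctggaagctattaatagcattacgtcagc
Fgf21: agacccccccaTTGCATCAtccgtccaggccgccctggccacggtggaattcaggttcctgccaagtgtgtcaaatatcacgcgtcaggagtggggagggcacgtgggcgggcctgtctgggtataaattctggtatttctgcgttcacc
Asns RNA rose from 135 to 896 CPM (log2 fold change 2.73, SE 0.064). Fgf21, a hormone of stressed muscle and liver, rose from 0.472, 0.297 and 0.245 to 87.1, 101 and 103 CPM. It was among the 10 largest rises of genes that averaged 5 CPM or more, passed the test and had groups without overlap. Atf3 rose from 0.413, 0.643 and 0.638 to 84.4, 82.4 and 76.4 CPM, 140.1-fold (SE 0.121 on the log2 scale).

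Single genes of iron handling and autophagy rose strongly. Heme oxygenase Hmox1 (ENSMUSG00000005413, GRCm38 chr8:75093621-75100589, plus strand), which breaks down heme and releases iron, went from 22.2, 23.01 and 23.4 to 449, 472 and 466 CPM, 20.2-fold (SE 0.064 on the log2 scale, adjusted p = 1.39e-14). The iron store ferritin heavy chain, Fth1, rose from 1350.2 ± 41.3 CPM (SD, n = 3) to 3756 ± 281 CPM (SD, n = 3). Steap3, a reductase of the transferrin cycle, fell (log2 fold change -0.99). In the iron list 3 of 10 tested genes rose by over 2-fold, 5 were higher and 3 lower, and the median was 0.20. Sqstm1 (p62), the receptor that hands cargo to autophagy, rose from 475, 468 and 471 to 4514, 4365 and 4429 CPM, 9.41-fold. The autophagy and lysosome list as a whole was mixed, with 4 of 22 tested up and 3 down by over 2-fold and a median of 0.10, which was unchanged with its member Klf15 at a bound since that gene is the highest of the list. Klf15 had no count at 0 h and was at least 150.6-fold higher at 24 h, taking 3 counts over the group as the floor. The protease Ctsl rose by a log2 fold change of 1.52, and Tfeb, a regulator of lysosome genes, had one of -1.44 (SE 0.093). Among heat shock and ER chaperones 8 of 22 rose and 1 fell by over 2-fold (5 and 2 with totals-only scaling), led by the mitochondrial chaperonin Hspd1, from 378 to 1112 CPM, and Hsph1 (log2 fold change 1.52), while the ER chaperone partner Sdf2l1 fell by 1.86-fold.

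Myc and the genes that build ribosomes rose while the cell cycle genes fell. Myc, a driver of growth and ribosome production, rose from 28.5, 30.7 and 35.7 to 153, 140.4 and 145 CPM, 4.61-fold (log2 fold change 2.21, SE 0.078, adjusted p = 1.38e-11). Of 10 tested genes for Myc, its partners and antagonists, 2 rose and 1 fell by over 2-fold, with a median of 0.67. The other riser, named after its value was seen, was the paralog Mycl, from 0.843 to 5.58 CPM (log2 fold change 2.73, SE 0.201). The Myc antagonist Mxd3 fell from 49.6 to 4.77 CPM (log2 fold change -3.37, SE 0.087). All 45 ribosome biogenesis genes were tested and all rose, 37 by over 2-fold, with a median log2 fold change of 1.40. The small-subunit factor Nop14 rose from 31.2, 31.9 and 32.7 to 159.6, 164 and 165 CPM (log2 fold change 2.35, SE 0.058) and the large-subunit factor Wdr12 from 30.6 to 135 CPM (log2 fold change 2.15, SE 0.071). Ubtf, which binds the ribosomal DNA, had the smallest rise, with a log2 fold change of 0.33 (SE 0.056). The Myc E-box letters CACGTG were in 10 of the 40 windows found for the list (25.0%), against 10.3% of tested genes with a window, 15.4% of genes up and 6.5% of genes down.

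Genes of ERK output mostly fell, and immediate-early genes went both ways. Of 16 genes of ERK feedback and output, 9 fell by over 2-fold and 2 rose (1 without the first 0 h library), with a median of -1.17. Etv4, a transcription factor induced by growth factor signals, fell from 34.2, 32.3 and 31.9 to 2.33, 3.10 and 3.40 CPM (log2 fold change -3.47, SE 0.123), and Dusp5, a nuclear ERK phosphatase, from 22.4 to 6.46 CPM. The EGF receptor ligand Ereg rose from 17.97 to 54.3 CPM. Among 17 immediate-early genes 3 rose and 6 fell by over 2-fold, with a median of -0.58. The largest change was the rise of Atf3, given above (log2 fold change 7.13, SE 0.121). Egr1, a fast responder to serum, fell from 103, 100.2 and 88.6 to 13.9, 15.7 and 16.1 CPM (6.37-fold lower), and Klf4 rose from 18.9 to 102 CPM (log2 fold change 2.43, SE 0.068).

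Contractile genes of the smooth-muscle type, many of them targets of serum response factor (SRF), fell from high levels. Acta2, smooth-muscle actin, went from 848, 839.8 and 850.1 to 72.8, 78.5 and 79.7 CPM, 10.98-fold lower (log2 fold change -3.46, SE 0.062, adjusted p = 4.69e-14), and the actin-binding Tagln from 41.7 to 3.07 CPM (log2 fold change -3.75, SE 0.107). In the later libraries without dox, Acta2 stood at 3256 ± 198 CPM and Tagln at 106.8 ± 4.12 CPM at 48 h (SD, n = 3 each). Of 22 tested members 12 fell by over 2-fold and the median was -1.52. The focal adhesion gene Zyx was higher, with a log2 fold change of 0.40 (SE 0.057). The CArG box (CC, then 6 of A or T, then GG), the element SRF binds, was found in the windows of 5 of 19 of these genes (26.3%), against 1.3% of tested genes and 1.6% of all windows. The box was also in 3 of 13 windows of the sarcomere list (23.1%), and in 1.1% of genes up and 2.0% of genes down. Its matches are in capitals in the 150 bases before the start of Srf itself (chr17:46556163-46556312, minus strand), cytoplasmic actin Actg1 (chr11:120348496-120348645, minus) and calponin Cnn2 (chr10:79988450-79988599, plus), picked among the genes with a match after it was seen.
Srf: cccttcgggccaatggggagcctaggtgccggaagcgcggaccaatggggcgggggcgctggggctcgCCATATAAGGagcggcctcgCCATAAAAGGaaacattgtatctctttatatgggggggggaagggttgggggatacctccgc
Actg1: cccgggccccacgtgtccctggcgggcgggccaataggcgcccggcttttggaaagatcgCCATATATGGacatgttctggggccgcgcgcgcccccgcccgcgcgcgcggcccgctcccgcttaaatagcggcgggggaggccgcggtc
Cnn2: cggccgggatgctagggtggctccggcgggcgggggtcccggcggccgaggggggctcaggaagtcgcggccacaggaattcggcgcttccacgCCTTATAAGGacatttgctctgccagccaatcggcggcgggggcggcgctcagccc
Srf RNA fell from 78.4 to 44.2 CPM, Actg1 RNA from 2764 to 1042 CPM and Cnn2 RNA from 297 to 57.2 CPM, with log2 fold changes of -0.83, -1.41 and -2.38. In the list of YAP and TEAD factors and their targets, 4 of 16 genes fell and 1 rose by over 2-fold. Ccn1 went from 133 to 15.1 CPM and the receptor Axl from 416 to 85.6 CPM, while Ankrd1 rose from 91.97, 92.5 and 91.95 to 257, 266 and 275 CPM.

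Collagen and interstitial matrix genes had the lowest median in the plot of list changes. In that list 19 of 26 tested members fell and 1 rose by over 2-fold (2 rose with DESeq2, without the low-count filter or with any 0 h library left out), and the median log2 fold change was -2.33. The riser, named after its value was seen, was the proteoglycan gene Dcn, scarce at 0.059, 0.049 and 0.196 CPM and then 0.898, 0.864 and 1.02 CPM. Fmod, fibromodulin, which binds collagen fibrils, had the largest fall of any gene averaging 5 CPM or more whose groups did not overlap, from 14.9, 12.9 and 14.4 to 0.163, 0.144 and 0.070 CPM (109-fold lower, SE 0.223 on the log2 scale). Col1a1 (ENSMUSG00000001506, GRCm38 chr11:94936224-94953042, plus strand), a chain of type I collagen, fell from 187, 205 and 191 to 5.43, 7.88 and 5.62 CPM, 30.7-fold lower (SE 0.107). Fibronectin, Fn1, was higher too, from 2532 ± 129 CPM (SD, n = 3) to 4273 ± 688 CPM (SD, n = 3) (log2 fold change 0.76, SE 0.097). Of 16 tested basement membrane genes 10 fell and 1 rose by over 2-fold, with Col4a1 going from 151, 149.9 and 154 to 15.7, 16.9 and 14.8 CPM and Lamb3 from 18.2 to 2.03 CPM, while the linker nidogen, Nid1, had a log2 fold change of 0.28 (SE 0.068), which did not pass with totals-only scaling (adjusted p = 0.0976). The riser, named after its value was seen, was the laminin chain gene Lama1, with 1 count at 0 h and a ratio of 76.95 (exact 95% interval for counting error 13.5 to 3067). Of the proteases and inhibitors, 9 of 17 fell by over 2-fold. Adam12, a disintegrin metalloprotease of regenerating muscle, fell from 45.6, 48.9 and 47.6 to 1.35, 1.19 and 0.737 CPM, and Mmp14, which sits on the cell surface, from 449.8 to 125 CPM. Mmp19 rose from 9.58 to 33.5 CPM.

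Secreted signals followed. In the TGF-beta, activin and BMP list 15 of 35 tested genes fell by over 2-fold, with a median of -0.69. Ltbp2, a matrix protein of the latent TGF-beta binding family, fell from 212, 219 and 209.9 to 7.63, 7.85 and 6.07 CPM (log2 fold change -4.89, SE 0.085), and Tgfb3, a ligand that holds back muscle differentiation, from 170.3 to 22.7 CPM. Chemokines and cytokines fell in 13 of 18 cases by over 2-fold: Il33, an alarmin, went from 32.4 to 1.34 CPM and Ccl2, which draws monocytes, from 10.4 to 0.465 CPM. The member that rose by over 2-fold (2 did without the first 24 h library) was Ptgs2, the inducible prostaglandin synthase, which rose from 24.3, 25.2 and 27.4 to 286, 237 and 258 CPM (10.1-fold). Of the Notch genes 5 of 16 fell by over 2-fold, among them the fringe enzyme gene Lfng (log2 fold change -2.73, SE 0.106) and the target Hes1 (-1.70, SE 0.109). Rbpj, the DNA-binding partner of Notch, rose by 0.75 on the log2 scale, and the ligand Jag1 by 0.51.

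The insulin-like growth factor axis, a main drive of muscle differentiation, changed in both directions: of 13 genes tested 2 rose and 7 fell by over 2-fold, with a median of -1.02. The binding proteins Igfbp4 and Igfbp5 were the risers, the former from 5.48, 4.85 and 4.42 to 55.4, 57.7 and 59.3 CPM and the latter from 169, 177 and 138 to 1156, 1259.8 and 1047 CPM (log2 fold changes 3.55 and 2.84, SE 0.086 and 0.096). Igfbp2 fell from 35.4 to 2.84 CPM. Irs1, the adaptor that carries insulin and IGF signals inward, fell from 241, 236 and 247 to 30.2, 25.3 and 25.3 CPM, 8.95-fold lower (SE 0.074 on the log2 scale). Igf2, also named with its values known, had too few counts to be tested and stood at 170 ± 5.12 CPM (SD, n = 3) at 48 h. The 24 h medium contains insulin, so the fall of Irs1 cannot be told apart from a response to it.

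Energy and lipid genes were followed as well. Of 25 glycolysis and hypoxia genes 3 rose and 9 fell by over 2-fold (median -0.74), where 1 rose with totals-only scaling. Pdk4, which keeps pyruvate out of mitochondria, fell from 65.8 to 11.1 CPM and the phosphofructokinase Pfkp from 80.6 to 23.9 CPM, while the hexokinase Hk2 and the vessel growth factor Vegfa rose (log2 fold changes 1.09 and 1.45). In the cholesterol list the median was -0.52, and 4 of 24 fell by over 2-fold, near the share of 16.6% over all genes tested. Tm7sf2, a sterol reductase, went from 12.1 to 4.21 CPM (log2 fold change -1.52, SE 0.125).

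Among genes that averaged 5 CPM or more, passed the test and had groups without overlap, the 10 largest rises began from almost nothing. Groups without overlap were themselves common, at 10406 of the genes tested (76.3%). Ostn, which encodes the muscle-secreted peptide musclin, had no count in any 0 h library and 29.4, 24.8 and 28.9 CPM at 24 h, at least 529.6-fold higher against a floor of 3 counts over the group. The teneurin Tenm2 had a single count at 0 h and 33.4, 39.3 and 30.5 CPM at 24 h, a ratio of 1979 (exact 95% interval for counting error 355 to 78210). H2-M10.1, a histocompatibility gene outside the classical set, and Fibin also had 1 count at 0 h, with ratios of 901 (161 to 35600) and 604 (108 to 23860). The secreted carbonic anhydrase Car6 went from 0.118, 0.099 and 0.098 to 225, 254 and 234 CPM and Avil, an actin-severing protein of the villin family, from 0.118, 0.495 and 0.442 to 536, 623 and 553 CPM. The kinase Dyrk4, the ATP-gated channel P2rx3 and the teneurin Tenm4 reached 38.9, 42.6 and 13.5 CPM, and Fgf21 completes the set. At the other end, after Fmod, were Car8, a carbonic anhydrase relative (25.9 to 0.526 CPM), Adam12, Id3, the integrin ligand nephronectin, Npnt (145, 156 and 149.9 to 3.92, 4.82 and 4.35 CPM), Col1a1, Ltbp2, Il33 and 1 predicted gene.

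Markers of other cell types were summed per library and ranged widely. The 7 myoblast markers summed to 901, 875 and 885 CPM at 0 h and 569, 599 and 586 CPM at 24 h, with desmin (Des) the most abundant and none at the floor of 3 counts. Endothelial markers summed to at most 0.29 CPM in any library and those of macrophages and leukocytes to between 1.08 and 3.37 CPM, with Ptprc, Adgre1, Itgam and Cd3e at 3 counts or fewer in every library. Adipocyte markers summed to 40.9 to 48.01 CPM at 0 h and 25.1 to 27.1 CPM at 24 h, mostly Cebpa, with Adipoq, Plin1 and Cidec at that floor. Those of osteoblasts and chondrocytes summed to 85.2 to 89.96 CPM and then 55.2 to 62.9 CPM, mostly Runx2, with Ibsp, Alpl and Acan at the floor. Fibroblast markers went from between 501 and 532 CPM to between 327 and 333 CPM, and most of this was Cd34, which myoblasts also express. Thy1 and Dpp4 were at the floor. Of the 4 fibroblast markers tested, named here after their values were seen, Pdgfra fell from 25.3 to 2.80 CPM and Ly6a from 82.6 to 22.8 CPM, while Pi16 rose from 0.581 to 3.46 CPM. Epithelial markers, chiefly Krt14, summed to between 35.8 and 40.4 CPM and then between 3.80 and 4.81 CPM, with Epcam, Krt5, Krt8 and Krt18 at the floor, and neural markers, mostly Syt1, to 28.03 to 31.2 CPM and then 17.9 to 19.4 CPM. The part of such cells in the results was not tested.

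The adhesion candidates of the study, chosen by its authors as raised by dox and more bound by MyoD1, all fell without dox in this interval. Itga3, an integrin subunit that binds laminin, fell from 387, 384 and 382 to 54.3, 55.8 and 51.99 CPM (7.11-fold lower, SE 0.057 on the log2 scale). Cdh15, the cadherin of myoblasts, fell from 53.6 to 24.1 CPM, Mcam from 8.27 to 2.56 CPM and Cadm4 from 9.51 to 3.89 CPM, with log2 fold changes of -1.15, -1.70 and -1.29 (SE 0.062, 0.16 and 0.13). Cdh23 was scarce at both times, at 1.42, 0.742 and 1.82 CPM and then 0.245, 0.144 and 0.386 CPM (adjusted p = 0.00042). At 48 h without dox, in the later libraries, Cdh15, Cdh23 and Mcam stood at 430 ± 15.6, 8.36 ± 0.769 and 11.3 ± 0.452 CPM (SD, n = 3 each). Itga3 and Cadm4 stood at 65.3 ± 2.78 and 3.92 ± 0.556 CPM there, and no test was made.

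How far this course depends on the absence of dox was asked by setting it against the same interval with dox. The 6 dox libraries of 0 and 24 h, 3 per time, share no library with those above and held between 17.9 and 42.0 M estimated counts. Per the paper, the growth-medium cultures of this set had dox for 24 h as well. The interval with dox therefore starts from cultures already exposed to it. There, 723 of 13943 tested genes rose and 1621 fell by over 2-fold. Genes up in both intervals numbered 487, which is 37.7% of those up without dox and 67.4% of those up with it, and genes down in both numbered 1262, 55.6% and 77.9%. Opposite calls were made for 7 genes. The difference between the intervals was tested for 14448 genes: the change was higher with dox for 408 (2.82%) and lower for 382 (2.64%) by over 2-fold at an adjusted p under 0.05. This split rests on the scaling, since with library totals only it was 721 higher and 225 lower.

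Mitosis genes fell in both settings, with differences between the intervals of -0.43 (Anln) to 0.82 (Nusap1) on the log2 scale, members named after their values were seen. Ribosome biogenesis genes differed: 22 of 45 had a change that was lower with dox by over 2-fold, against 2.64% of all genes tested. Myc is the clearest case among the regulators always named. It rose without dox and fell with it, by log2 fold changes of 2.21 and -0.87, a difference of -3.13 (SE 0.118, adjusted p = 1.17e-11). Myf5 also rose without dox and fell with it (0.99 and -0.96), a difference of -2.00 (SE 0.129, adjusted p = 6.08e-09). Of the adhesion candidates 4 of 5 had a higher change with dox, Cdh23 by 2.27 (SE 0.456), Itga3 by 1.46 (SE 0.067), Mcam by 1.39 (SE 0.186) and Cadm4 by 1.25 (SE 0.137), where their choice for a dox response means that the direction is not independent evidence. For Cdh15 the difference was 0.15 (SE 0.073, adjusted p = 0.135), and this passed with DESeq2 (0.20, adjusted p = 0.0403), with RLE scaling (0.20, adjusted p = 0.042) and with totals only (0.35, adjusted p = 0.00101).

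Among genes averaging 5 CPM or more, those with the largest differences between the intervals were Rgs2, Atf3 and Cyp4b1 on the lower side and Atp1b2, 2210011C24Rik and Dock8 on the higher side, beside 1 ribosomal protein pseudogene on each. Rgs2, a brake on G protein signals, went from 9.28 ± 1.04 to 206 ± 2.71 CPM (SD, n = 3 each) without dox and from 6.31 ± 1.77 to 10.5 ± 0.272 CPM (SD, n = 3 each) with it, a difference of -3.72 (SE 0.176, adjusted p = 1.4e-10). Atf3 rose in both, to 87.6 ± 4.33 CPM without dox and 17.2 ± 0.848 CPM with it (SD, n = 3 each, scaled over all 12 libraries), a difference of -3.66 (SE 0.229). The cytochrome Cyp4b1 reached 17.2 ± 0.843 and 2.56 ± 0.0530 CPM (SD, n = 3 each), a difference of -3.41 (SE 0.542). Atp1b2, a sodium pump subunit, fell from 3.52 ± 0.224 to 0.189 ± 0.0320 CPM without dox and from 21.1 ± 2.79 to 9.22 ± 0.896 CPM with it (SD, n = 3 each), a difference of 3.00 (SE 0.289). Dock8, a regulator of the actin cytoskeleton, fell without dox from 25.6 ± 2.30 to 4.50 ± 0.606 CPM and was at 27.3 ± 4.67 and 22.9 ± 2.43 CPM with it (SD, n = 3 each), a difference of 2.25 (SE 0.180). For 2210011C24Rik the difference was 2.83 (SE 0.287). Single genes named above, chosen here after their values were seen, differed as well. The rise was smaller with dox for Hmox1 (difference -2.77, SE 0.078), Ptgs2 (-2.88, SE 0.136) and Gadd45a (-2.36, SE 0.113). Ankrd1 and Nid1 fell with dox (log2 fold changes -1.10 and -2.03, differences -2.69 and -2.35). In the ATF4 list, 0 of 21 genes passed with a difference over 2-fold in either direction. In the collagen and interstitial matrix list 3 had a higher change with dox and 0 a lower one. In the basement membrane list 0 had a higher change and 2 a lower one.

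**Figure D4:**
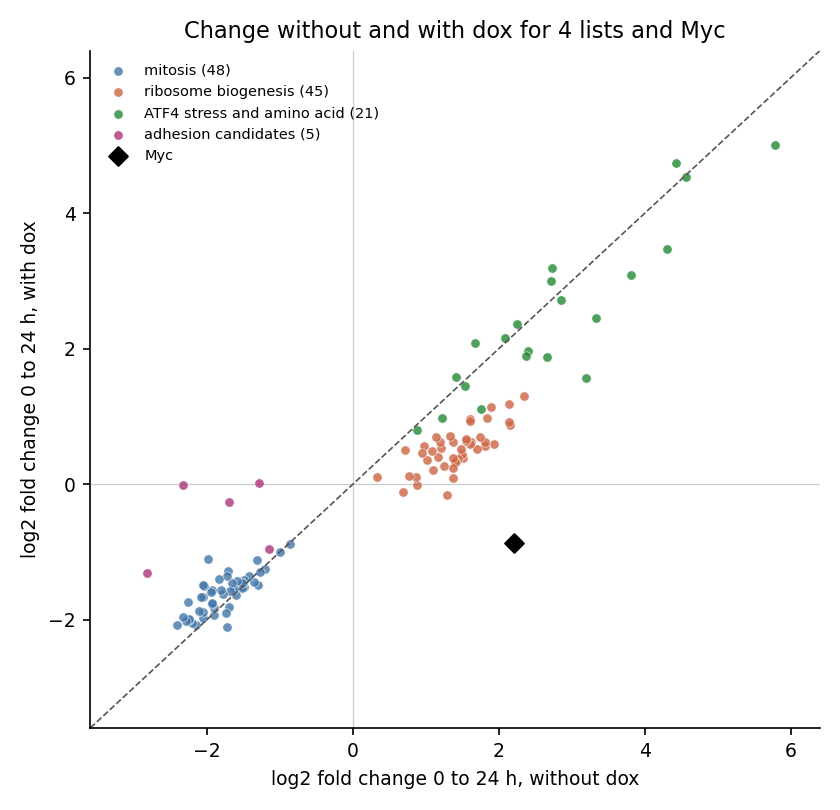
Log2 fold change from 0 to 24 h without dox (horizontal axis) against that with dox (vertical axis) for the members of 4 gene lists and Myc, with 1 point per gene and 3 libraries per time in each setting. The dashed line marks equal change. Mitosis genes lie near it, ribosome biogenesis genes and Myc below it, and 4 of 5 adhesion candidates well above it.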

How the data were processed

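RNA of 6 cultures was compared, 3 per time. Per the labels, the deposited values are estimated counts per transcript, made by the authors with Salmon on mm10. The paper gives the pipeline as nf-core/rnaseq 3.18.0. Transcripts were summed per gene, giving 45706 genes from 109617 transcripts. Genes were kept with the filterByExpr function of edgeR 4.0.16 (R 4.3.3), scaled by TMM and tested with its quasi-likelihood test (time as the sole term), with Benjamini-Hochberg adjustment. A call needed an adjusted p below 0.05 and a change over 2-fold. Differences between intervals with and without dox were tested as an interaction over 12 libraries. The common coefficient of variation was 0.07. For genes with 3 counts or fewer at 0 h, ratios of summed counts carry exact 95% intervals (scipy 1.17.1). Tables were handled in Python 3.11.15 with pandas 2.3.3 and drawn with matplotlib 3.10.9. DESeq2 1.42.0, RLE scaling, no filter, a replicate term, a 4-group fit, no fold limit and libraries left out in turn were tried, and, after the data were seen, scaling by totals and thinning.

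Members and lists were chosen with earlier results of these data known. Named genes are a set list of regulators and adhesion candidates, the highest and lowest 2 of each list at 5 CPM or more, the 10 largest changes each way and the 4 largest differences between intervals. Some genes that this rule names are not reported. Others, such as Atf4, Slc7a11, Asns, Klf15, Cdk1 and Srf, were chosen after their values were seen. Promoter windows are RefSeq on GRCm38.p6, and 1 file of the series was not used.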

Additional observations from a re-analysis of the deposited data

Results flagged for a closer look

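The test of the difference between the intervals with and without dox marked these genes, each given as the log2 fold change from 0 to 24 h with dox minus that without. Among those ranked by size, Atp1b2 (2.998), 2210011C24Rik (2.833) and Dock8 (2.253) fell without dox and had a less negative change with it, and Rgs2 (-3.716), Atf3 (-3.659) and Cyp4b1 (-3.413) rose less with it. Of the regulators, Myc (-3.126) and Myf5 (-2.003) rose without dox and fell with it. Hmox1 (-2.773), Ptgs2 (-2.885) and Gadd45a (-2.36) rose less with dox, and Ankrd1 (-2.685) and Nid1 (-2.354) fell with it. The adhesion candidates Itga3 (1.462), Mcam (1.388), Cadm4 (1.245) and Cdh23 (2.271) fell without dox and had a higher change with it. The study chose them as raised by dox in this series and as more bound by MyoD1.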

How the results depend on the processing

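With libraries left out in turn, genes up ranged from 1245 to 1413 and genes down from 2289 to 2341, genes with a higher change with dox from 362 to 446, those with a lower change from 366 to 377, and the median over all genes from 0.007 to 0.019. Residuals gave no sign that same-numbered replicates pair (correlations of residuals -0.111, 0.138 and 0.011), and with a replicate block the counts were 1285 up, 2267 down, 397 higher and 374 lower with dox. Without a fold limit, 5086 genes were higher and 5040 lower. With scaling by totals only, chosen after the data were seen, the counts were 979 and 2633, the median was -0.124, and the differences between intervals split 721 to 225 in place of 408 to 382. The cause was not tested. It also ended the calls of Ncam1, Nid1 and Rpa3, and the Cdh15 difference passed with it, DESeq2 and RLE. Tcf12 passed with it and without the first 24 h library. DESeq2, RLE, no filter and thinning to the smallest total kept all these counts within 1.5 times, as did the 4-group fit, run without the dox differences. Counts within gene lists stayed so in 871 cases and moved by more in 39, and no direction of a recomputed named gene was reversed where the gene was tested. Myf5, at 2-fold, crosses the limit in some of them. Depth was lower at 0 h (16.2 to 19.3 M) than at 24 h (25.4 to 30.4 M), which limits genes near the floor.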

Other observations

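Clock genes set the daily rhythm. Of 17 tested 12 were higher and 4 lower, and 4 rose and 1 fell by over 2-fold, with a median of 0.49. Ciart, a repressor of the clock, rose from 3.07, 4.21 and 3.24 to 39.6, 45.9 and 40.3 CPM (log2 fold change 3.57, SE 0.117) and Cry2 from 11.2 to 32.3 CPM. Bhlhe40 fell from 59.6 to 22.8 CPM and the activator Arntl had a log2 fold change of -0.68 (SE 0.081). A change of medium resets the clock of cultured cells, and phase and level cannot be told apart at a single time.

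The 24 h medium also brings selenium. Among 19 selenoprotein genes 2 rose and 4 fell by over 2-fold, with a median of -0.20. These counts are near the shares of 9.49% and 16.6% over all genes tested, and a response to selenium was not tested. The risers were 1 in place of 2 with DESeq2, with totals-only scaling and in 4 of the 6 fits that leave out a library. Thioredoxin reductase Txnrd1 rose from 163, 158 and 160.1 to 432, 418 and 405 CPM, and the secreted peroxidase Gpx3 fell from 33.6 to 10.7 CPM (log2 fold changes 1.39 and -1.65, SE 0.055 and 0.092). Interferon and antigen presentation genes had a median of -0.61, with 7 of 20 down by over 2-fold (4 after thinning) and 1 up (none with totals only or without the third 24 h library): Ifit2 went from 32.1 to 7.70 CPM and Tapbp from 142 to 43.9 CPM, while the ubiquitin-like Isg15 rose from 3.62 to 7.68 CPM. Fatty acid synthesis genes had a median of -0.71, with Acss2, which makes acetyl-CoA from acetate, going from 36.2 to 9.59 CPM. Mitochondrially encoded genes and mitochondrial regulators changed by less than 2-fold throughout, with 10 of 17 higher, 2 lower and a median of 0.26. The packaging factor Tfam had a log2 fold change of 0.55 (SE 0.061). The antioxidant response letters (TGACNNNGC), searched after the values were seen, were in 5 of 19 windows of the ATF4 list (26.3%), against 14.8% of tested genes with a window. Genes up and genes down had equal shares of these letters. Among lists that mostly fell, the share was 23.1% for mitosis, 17.9% for replication and 5.3% for the SRF list. The letters therefore did not set rising genes apart.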
